A study of Mus musculus with 24 samples.

Results

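Control of hepatic glucose output and glucose use was followed through 9 genes, Pck1, G6pc, Fbp1, Pcx, Ppargc1a, Foxo1, Pklr, Pfkfb1 and Slc2a2. They were picked by symbol from the 55421 genes of the count and FPKM tables, all 9 were found, and all 9 were among the 13847 genes that passed the filter on low counts. RNA was sequenced from hepatocytes that had been freed from the liver by perfusion, in male C57BL/6J mice that all carried the same batch label. The animals had been given vehicle or eRapa, rapamycin enclosed in a polymer for feeding and dosed at 42 ppm, from 4 months of age. At 18 months, 8 animals with vehicle stayed on normal diet (ND+veh), while 7 animals with vehicle (HFD+veh) and 9 with eRapa (HFD+eRapa) went for 9 weeks onto a high-fat diet with 60% of its calories from fat. Animals on normal diet with eRapa were not analysed here, so HFD+eRapa differs from ND+veh in both diet and drug. The animals could feed freely up to euthanasia. In what follows the diet comparison sets HFD+veh against ND+veh, the drug comparison sets HFD+eRapa animals against those with vehicle on the same diet, and the joint comparison sets HFD+eRapa animals against those on normal diet. They ask which of the 9 genes differ with the diet in aged animals, and which with eRapa on that diet. The diet and drug comparisons share the HFD+veh animals with opposite sign, so opposite changes in them are not independent results.

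The liver makes glucose from lactate, amino acids and glycerol between meals and takes glucose up and breaks it down after them. Fasting hormones, acting through cyclic AMP and glucocorticoids, switch on genes of gluconeogenesis with the help of the coactivator PGC-1alpha and the factor FOXO1, and insulin acts against both. Rapamycin inhibits the kinase mTOR, a hub of nutrient and insulin signalling. Pcx encodes pyruvate carboxylase, which makes oxaloacetate from pyruvate in mitochondria, and Pck1 the cytosolic phosphoenolpyruvate carboxykinase that turns it into phosphoenolpyruvate. Fbp1 encodes fructose-1,6-bisphosphatase and G6pc the catalytic subunit of glucose-6-phosphatase, which frees glucose. Ppargc1a encodes PGC-1alpha and Foxo1 its partner. Pklr encodes the liver pyruvate kinase of glycolysis, Pfkfb1 the liver enzyme with kinase and phosphatase activity that sets the level of fructose-2,6-bisphosphate, and Slc2a2 the glucose transporter GLUT2.

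The libraries held 17739252 to 25945134 counts. Hepatocyte markers were abundant in all of them, and the summed level of 7 such genes, Alb among them, was 58220 to 160900 CPM (reads of a gene as a share of its library, scaled by TMM) in ND+veh, 98670 to 161200 in HFD+veh and 50410 to 145500 in HFD+eRapa. Markers of other cells moved with the groups. The summed level of 10 macrophage markers had a median of 208 CPM in ND+veh (range 36.9 to 1085), 1755 in HFD+veh (range 132 to 2802) and 141 in HFD+eRapa (range 11.2 to 772). Of these 10 genes, 3 passed the test as higher in the diet comparison, 8 as lower in the drug comparison and 0 in the joint comparison (edgeR, adjusted p under 0.05 over all genes tested, here termed called). The joint comparison had 3598 of 13847 genes with an unadjusted p under 0.05. Over all genes tested, 16.0% were called higher and 9.86% lower in the diet comparison. These shares were 10.9% and 21.1% in the drug comparison, and 6.93% and 6.54% in the joint comparison. Of endothelial markers 8 of 8, and of stellate cell markers 9 of 9, were called lower in the drug comparison, from median sums of 478 and 158.5 CPM to 148 and 45.8. The summed level of 7 neutrophil markers had a median of 1.12 CPM in ND+veh (range 0.114 to 6.73) and 23.4 in HFD+veh (range 1.72 to 47.7). In HFD+eRapa the median was 2.49 CPM (range 0.0563 to 12.1). Of the 7, only Ly6g was at 0 in every ND+veh and HFD+eRapa library. Among hepatocyte genes, 7 of 10 pericentral markers were called lower in the diet comparison and 9 of 10 higher in the drug comparison, while 5 of 7 periportal markers were called higher in the diet comparison and 4 of 7 lower in the drug comparison. In bulk samples, fewer cells of a type and less RNA per cell cannot be told apart. The libraries ND+veh replicate 4, lowest of its group for the hepatocyte list at 58220 CPM, and HFD+veh replicate 6, highest of all for the macrophage list at 2802 CPM, stood apart, and calls of the 9 genes and of the genes named from the lists that are lost or gained without either or both are given beside them or by the number of libraries on which they depend, apart from genes picked after their values were seen. HFD+eRapa replicate 7 was lower still for the hepatocyte list, at 50410 CPM. No HFD+eRapa library was removed along with ND+veh replicate 4 and HFD+veh replicate 6, so that setting trims only the vehicle groups. Each library of all groups was also left out in turn.

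The 9 genes spanned a wide range of levels. On the FPKM scale, which allows for gene length, Fbp1 and Pck1 led in every group, with group means of 619 and 529 FPKM in ND+veh, 978 and 900 in HFD+veh, and 851 and 735.5 in HFD+eRapa. A middle set of 4 genes followed, at 182 FPKM for Pklr, 162 for G6pc, 158 for Pcx and 135 for Slc2a2 in ND+veh. Animals of the same group overlapped between Fbp1 and Pck1 and between every pair of neighbours within the middle set, so the order inside those sets does not exceed the spread between animals. Pcx had rank 5 in ND+veh and HFD+veh but rank 3 in HFD+eRapa, at 223 ± 36.1 FPKM (SD, n = 9), where its lowest animal at 143 still overlapped G6pc. Pklr had rank 3 in ND+veh and was last of the middle set in both high-fat groups, at 124 and 116 FPKM. The 3 scarcest genes kept 1 order in all groups, with Pfkfb1 at 13.6 to 18.6 FPKM, Foxo1 at 3.42 to 3.83 and Ppargc1a at 1.01 to 2.31. No animal's Pfkfb1 level overlapped that of Foxo1 within a group, whereas Foxo1 and Ppargc1a overlapped in ND+veh and HFD+veh and were apart in HFD+eRapa. Ppargc1a rested on 78 to 415 counts per library, the fewest of the 9, and Pck1 on 10775 to 80454.

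The start regions of 4 of the genes are shown, Pcx and Ppargc1a because they differed between high-fat groups and Pck1 and G6pc because they are the textbook targets of cyclic AMP and insulin. The sequences are the 250 bases before the first RefSeq start in GRCm38.p6, read 5′ to 3′ on the strand of the gene, and span chr2:173152823-173153072 on the plus strand for Pck1, chr5:51567726-51567975 on the minus strand for Ppargc1a, chr11:101367466-101367715 on the plus strand for G6pc and chr19:4510222-4510471 on the plus strand for Pcx. Capitals mark exact matches, on either strand, to the motifs searched.

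Pck1: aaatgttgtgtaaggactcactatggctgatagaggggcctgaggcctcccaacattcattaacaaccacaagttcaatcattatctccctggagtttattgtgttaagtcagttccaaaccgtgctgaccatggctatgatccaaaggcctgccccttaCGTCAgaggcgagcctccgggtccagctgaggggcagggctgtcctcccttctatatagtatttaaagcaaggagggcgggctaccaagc
Ppargc1a: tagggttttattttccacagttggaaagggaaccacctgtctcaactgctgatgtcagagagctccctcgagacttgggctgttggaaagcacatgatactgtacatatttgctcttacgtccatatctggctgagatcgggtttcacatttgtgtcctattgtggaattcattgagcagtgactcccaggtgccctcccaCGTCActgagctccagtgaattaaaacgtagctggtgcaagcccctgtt
G6pc: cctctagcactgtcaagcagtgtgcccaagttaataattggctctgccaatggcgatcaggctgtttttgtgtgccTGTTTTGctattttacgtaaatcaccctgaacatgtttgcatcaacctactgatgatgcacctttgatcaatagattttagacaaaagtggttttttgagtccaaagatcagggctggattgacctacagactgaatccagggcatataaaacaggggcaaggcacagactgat
Pcx: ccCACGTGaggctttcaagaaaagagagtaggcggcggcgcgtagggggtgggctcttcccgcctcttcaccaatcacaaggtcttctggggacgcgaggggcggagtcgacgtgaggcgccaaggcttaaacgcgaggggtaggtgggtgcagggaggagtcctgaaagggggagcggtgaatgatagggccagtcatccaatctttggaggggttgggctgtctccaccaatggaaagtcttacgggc

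In Pck1 and Ppargc1a the capitals are the core TGACG of the cyclic AMP response element, read on the opposite strand as CGTCA and starting 90 and 49 bases before the start. In G6pc they are the insulin response sequence CAAAACA, read on the opposite strand and starting 174 bases before the start, and in Pcx the E-box CACGTG 248 bases before it. Pcx has another RefSeq start, whose window at chr19:4594069-4594368 held 0 matches to the motifs searched. Which start the hepatocytes used was not tested. Over all 32851 RefSeq windows of 300 bases, from 250 before to 50 after a start, that core was present in 20.8%, the insulin response sequence in 6.28% and the E-box in 7.15%. The full response element TGACGTCA, which holds the core, was present in 1.79% and the FOXO core TGTTTAC in 3.65%, and neither was matched in a window of the 9 genes. A match of letters is a description of the window and was not tied to binding here.

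With the high-fat diet, Fbp1 rose 1.62-fold, and it was the only gene of the 9 that was called in the diet comparison. Across all genes tested, 25.9% were called in that comparison, 16.0% higher and 9.86% lower. Pck1 was 1.76-fold higher and Pklr 0.626-fold as high on average without passing the test. For none of the 9 genes were the groups free of overlap in any of the 3 comparisons, beside 2.44% of all genes in the diet, 2.59% in the drug and 3.37% in the joint comparison.

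**Figure D1:**
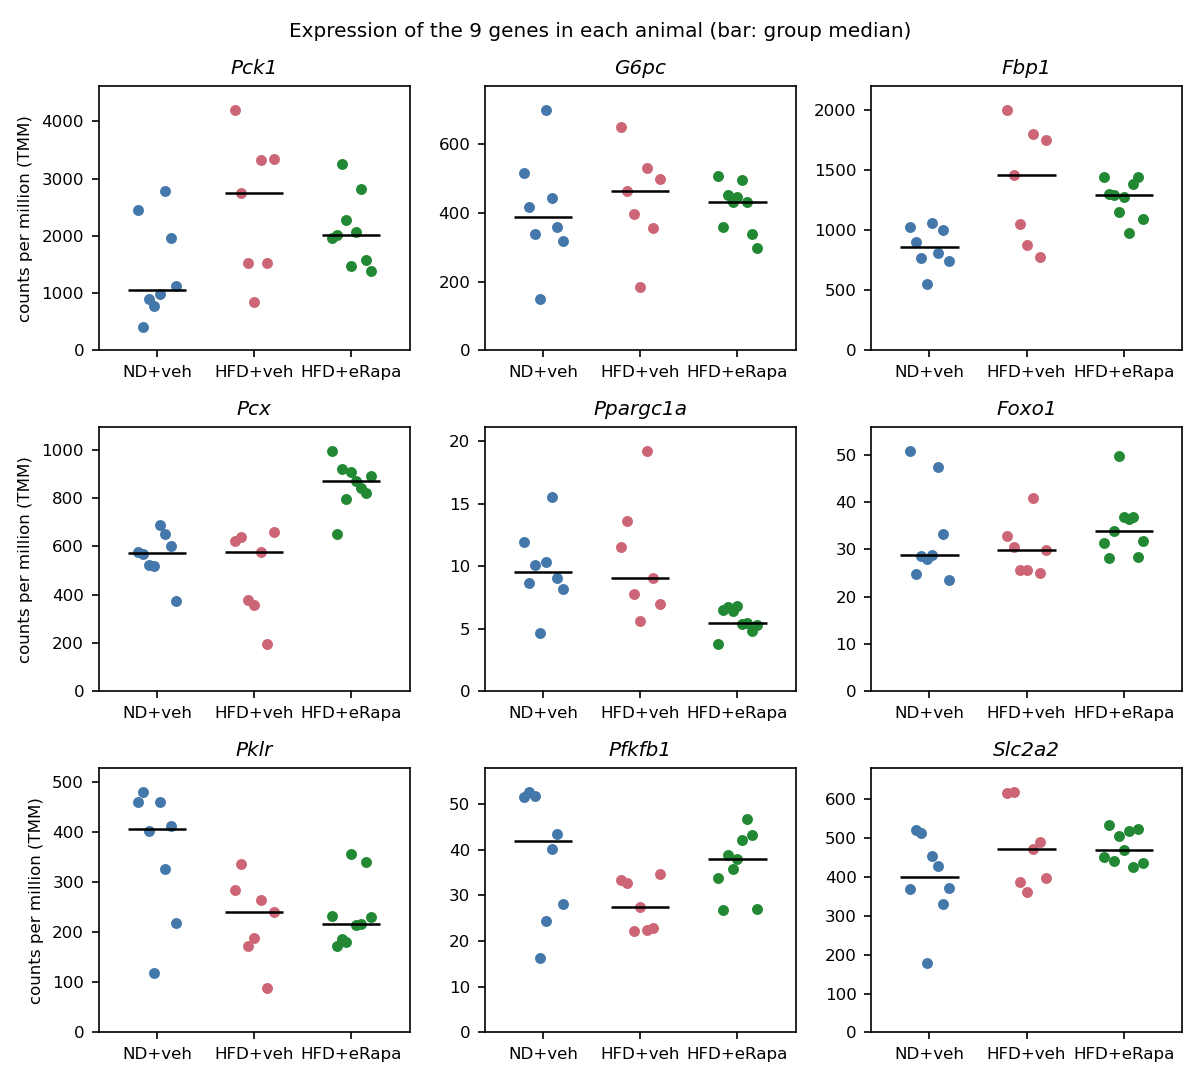
Expression of the 9 genes in each animal, in CPM scaled by TMM on a linear axis from 0, with 8 ND+veh, 7 HFD+veh and 9 HFD+eRapa animals and a bar at each group median. Pcx lies at 653 CPM or more in all HFD+eRapa animals and Ppargc1a at 6.82 CPM or less, and in every panel the groups overlap.

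Among the enzymes of glucose production, Fbp1 (ENSMUSG00000069805.10, chr13:62864753-62888282, minus strand, GRCm38) ran from 551 CPM through a median of 858 to 1064 in ND+veh and from 776 through 1459 to 2003 in HFD+veh. Of the 7 HFD+veh animals, 4 lay above every ND+veh animal and the other 3 within their range. Its log2 fold change was 0.69 ± 0.182 (SE; edgeR, adjusted p = 0.00971), and it remained called in 37 of 37 alternative fits. Pck1 (ENSMUSG00000027513.11, chr2:173153048-173159273, plus strand) varied most, from 411 CPM through 1061 to 2787 in ND+veh and from 846 through 2757 to 4198 in HFD+veh. Here 3 of 7 HFD+veh animals exceeded the whole ND+veh range, and 3 ND+veh animals at 1961, 2445 and 2787 CPM reached into the HFD+veh group. The log2 fold change of 0.81 ± 0.353 (SE) missed the threshold (edgeR, adjusted p = 0.0881; 95% interval 0.12 to 1.50 before adjustment), and without ND+veh replicate 6, the highest of its group, it was 1.03 with an adjusted p of 0.0394. G6pc (ENSMUSG00000078650.2, chr11:101367561-101377903, plus strand) ran from 150 through 388 to 700 CPM in ND+veh and from 184 through 464 to 651 in HFD+veh. The ranges nearly coincided, with a log2 difference of 0.12 and a 95% interval of -0.35 to 0.59. Pcx (ENSMUSG00000024892.17, chr19:4510472-4621752, plus strand) differed by a log2 value of -0.20 with an interval of -0.57 to 0.17, and 2 of 7 HFD+veh animals lay below all ND+veh animals.

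The regulators and the genes of glucose use showed no called difference with the diet. Ppargc1a (ENSMUSG00000029167.13, chr5:51454250-51567726, minus strand) had medians of 9.57 CPM in ND+veh and 9.07 in HFD+veh, with 1 HFD+veh animal at 19.2 above all others. Its log2 difference was 0.11 with a 95% interval of -0.35 to 0.56 from counts, and -0.428 from log2(FPKM + 0.1), neither of them called. Foxo1 (ENSMUSG00000044167.6, chr3:52268336-52353221, plus strand) ranged from 23.5 to 50.8 CPM in ND+veh and from 25.1 to 40.8 in HFD+veh, a log2 difference of -0.14 with an interval of -0.46 to 0.18. Pklr (ENSMUSG00000041237.12, chr3:89136142-89146784, plus strand) ran from 118 through 406 to 480 CPM in ND+veh and from 89.3 through 240.4 to 335 in HFD+veh. All 7 HFD+veh animals lay below the ND+veh median, yet ND+veh replicates 4 and 8, at 118 and 219 CPM, were within the HFD+veh range. The log2 fold change of -0.68 ± 0.268 (SE) was not called (edgeR, adjusted p = 0.0638), and it became called without ND+veh replicate 4 (-0.836, adjusted p = 0.0137), without ND+veh replicate 8 (adjusted p = 0.0396), without HFD+veh replicate 2 (adjusted p = 0.0316) and with DESeq2 (adjusted p = 0.0436). Without ND+veh replicate 4 and HFD+veh replicate 6 together it was -0.692 and called (edgeR, adjusted p = 0.0266). Pfkfb1 (ENSMUSG00000025271.13, chrX:150588229-150643878, plus strand) had the same order, with all 7 HFD+veh animals below the ND+veh median of 41.9 CPM. Its log2 difference of -0.46 ± 0.203 (SE) was not called (edgeR, adjusted p = 0.091) and was -0.61 without ND+veh replicate 4 (adjusted p = 0.0147). With HFD+veh replicate 6 removed as well it was -0.558 and still called (edgeR, adjusted p = 0.0415). Slc2a2 (ENSMUSG00000027690.13, chr3:28697903-28731359, plus strand) differed by 0.27 on the log2 scale with an interval of -0.06 to 0.59. A p that misses the threshold does not show that these genes are equal in both groups.

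**Figure D2:**
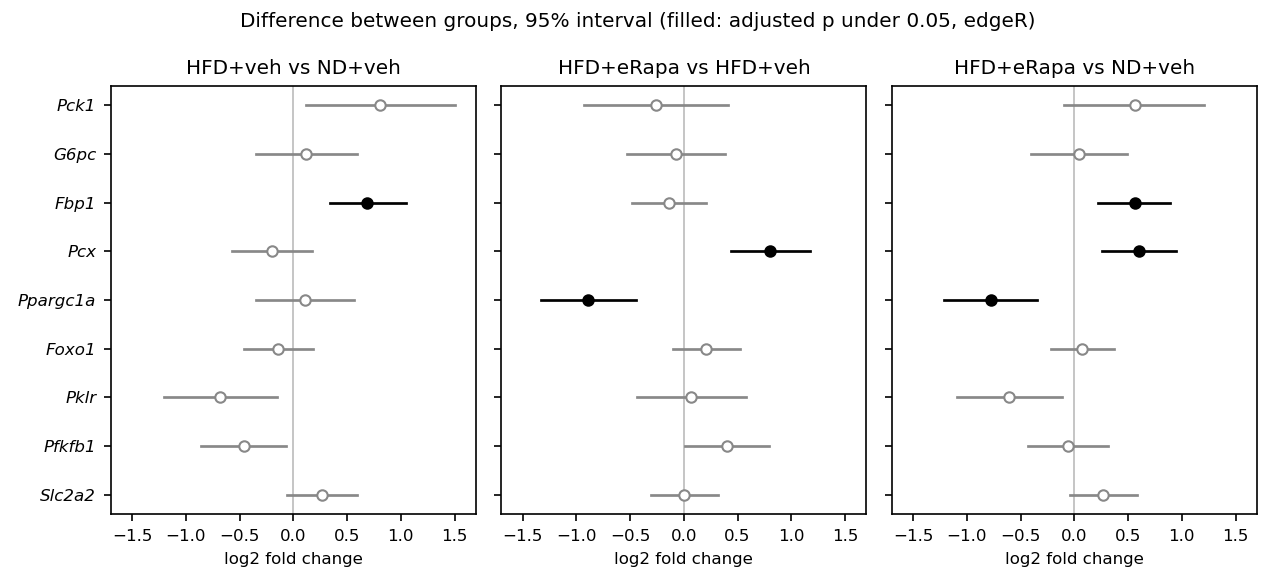
Log2 fold change of each gene with its 95% interval in the 3 comparisons, from the edgeR fit of all 24 libraries, filled where the adjusted p is under 0.05. The filled points are Fbp1 in the diet comparison, Pcx and Ppargc1a in the drug comparison, and all 3 of these in the joint comparison.

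On the high-fat diet, eRapa went with a 1.75-fold higher level of Pcx and a 0.540-fold level of Ppargc1a, and with no called change in the other 7 genes. Both called genes stand beside 32.0% of all genes called in the drug comparison, 10.9% higher and 21.1% lower. Pcx ran from 197 CPM through 577.5 to 661 in HFD+veh and from 653 through 872 to 995 in HFD+eRapa. All but 1 of the 9 HFD+eRapa animals lay above every HFD+veh animal, the exception being replicate 2 at 653 CPM. The log2 fold change was 0.80 ± 0.186 (SE; edgeR, adjusted p = 0.00298) and ranged from 0.677 to 0.891 when each library was left out in turn, always called. Marker levels moved with Pcx. In HFD+veh the 3 animals lowest in Pcx, replicates 3, 4 and 6 at 378, 360 and 197 CPM, had 2360, 1755 and 2802 CPM of macrophage markers, while replicate 5 combined 1975 CPM of these markers with 577.5 CPM of Pcx. With the summed immune marker level as a covariate, the Pcx difference was 0.576 and not called (adjusted p = 0.0751). In that fit 6.28% of all genes were called in the drug comparison, beside 32.0% without the covariate, so the loss is not particular to Pcx. Marker level and group go together, and their parts cannot be told apart here.

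Ppargc1a ran from 5.61 CPM through 9.07 to 19.2 in HFD+veh and from 3.81 through 5.44 to 6.82 in HFD+eRapa. No HFD+eRapa animal reached the HFD+veh median, and 5 of 9 lay below every HFD+veh animal. The log2 fold change was -0.89 ± 0.226 (SE; edgeR, adjusted p = 0.00525), and it was called in 34 of 37 alternative fits, the 3 others being those on FPKM, at -0.435 or -0.692 with adjusted p-values of 0.0857 to 0.156. The count and FPKM tables treat this gene unequally. CPM divided by FPKM gives the length, in kilobases, that an FPKM value stands for, and for Ppargc1a that length ran from 2.35 to 7.84 between libraries, a ratio of 3.34 between the extremes. For the other 8 genes the same ratio was 1.07 to 1.63. The group medians for Ppargc1a were 4.54 kb in ND+veh, 6.76 in HFD+veh and 6.46 in HFD+eRapa, so its FPKM and count differences from ND+veh are not on 1 footing.

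Of the genes without a called difference, Pfkfb1 came nearest. It ran from 22.3 through 27.4 to 34.7 CPM in HFD+veh and from 26.8 through 38.0 to 46.8 in HFD+eRapa. There 6 of 9 HFD+eRapa animals lay above all HFD+veh animals, and 2 were at the HFD+veh median or lower. The log2 difference was 0.40 ± 0.198 (SE; edgeR, adjusted p = 0.124), and it was called only when the 2 groups were fitted alone (adjusted p = 0.0394). Foxo1 differed by 0.21 with a 95% interval of -0.10 to 0.52, and HFD+eRapa replicate 4 was its highest animal there at 49.7 CPM. Pck1 differed by -0.26 (interval -0.93 to 0.41), Fbp1 by -0.14 (-0.48 to 0.21) and G6pc by -0.0746 (-0.53 to 0.38). Every HFD+eRapa animal was below the HFD+veh median for Fbp1, but none was below the HFD+veh range. Pklr at 0.0705 (-0.44 to 0.58) and Slc2a2 at 0.00358 (-0.31 to 0.32) had the smallest differences.

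Against ND+veh, HFD+eRapa animals had more Fbp1 (1.47-fold) and Pcx (1.52-fold) and less Ppargc1a (0.582-fold), 3 of the 9 genes where 13.5% of all genes were called, 6.93% higher and 6.54% lower. This comparison shares its HFD+eRapa animals with the one above and its ND+veh animals with the diet comparison, so the values are given side by side. For Fbp1 the log2 fold changes were 0.69 with the diet, -0.14 with the drug and 0.56 ± 0.172 in the joint comparison (SE; edgeR, adjusted p = 0.0309). All but 1 of the 9 HFD+eRapa animals, from 980 through 1298 to 1447 CPM, were above every ND+veh animal. The call was lost in 8 of 37 alternative fits, with adjusted p-values up to 0.0827, among them those without ND+veh replicates 3, 4, 6 or 8 and without HFD+eRapa replicates 1 or 8. Pcx was at 375, 572 and 690 CPM in the lowest, median and highest ND+veh animal, and again 8 of 9 HFD+eRapa animals exceeded that range. Its log2 fold change was 0.60 ± 0.177 (SE; edgeR, adjusted p = 0.0233), which became 0.569 with an adjusted p of 0.0536 without ND+veh replicate 4 and was 0.509 or 0.512 and not called on FPKM (adjusted p = 0.121 to 0.26). Ppargc1a differed by -0.78 ± 0.219 (SE; edgeR, adjusted p = 0.0176), or -0.655 without ND+veh replicate 6 (adjusted p = 0.0526). Only 1 HFD+eRapa animal was below all ND+veh animals, as ND+veh replicate 4 stood at 4.66 CPM.

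Pklr had -0.61 ± 0.249 on the log2 scale in that comparison (SE; edgeR, adjusted p = 0.114), with all 9 HFD+eRapa animals under the ND+veh median of 406 CPM. Without ND+veh replicate 4, at 118 CPM, it was -0.761 and called (adjusted p = 0.0219). With HFD+veh replicate 6 removed as well it was -0.738 and called (edgeR, adjusted p = 0.00848). Pck1 differed by 0.56 (95% interval -0.10 to 1.21) and Slc2a2 by 0.27 (-0.04 to 0.58), both with all 9 HFD+eRapa animals over the ND+veh median. G6pc (0.0442, interval -0.40 to 0.49), Foxo1 (0.0739, -0.22 to 0.37) and Pfkfb1 (-0.0632, -0.43 to 0.31) had intervals on both sides of 0.

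Animals of the HFD+eRapa group were the most alike for most of these genes. The coefficient of variation of the CPM values was lower in HFD+eRapa than in ND+veh for 9 of 9 genes and lower than in HFD+veh for 8 of 9, the exception being Foxo1 at 18.7% against 18.5%. Over all genes tested the same was true of 51.5% and 73.2%. For Pck1 the coefficient was 60.5% in ND+veh, 48.9% in HFD+veh and 29.6% in HFD+eRapa, and for Slc2a2 it was 28.0%, 22.3% and 8.88%. The medians over the 9 genes were 32.0%, 35.2% and 17.9%, beside 22.3%, 30.8% and 21.6% over all genes. Without ND+veh replicate 4 and HFD+veh replicate 6 the counts became 8 of 9 and 7 of 9, with medians of 24.2%, 25.1% and 17.9%. Over all genes tested the shares were then 45.4% and 55.9%, with medians of 20.4%, 24% and 21.6%. In that setting Pklr varied most in HFD+eRapa, at 28.4% against 23.6% in ND+veh and 24.5% in HFD+veh. This measure was chosen after the values had been seen and was not tested.

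Within groups, levels of many of the 9 genes were correlated from animal to animal. After removal of group means, Pearson's r of log2 CPM was above 0 in all 36 pairs, in 33 of them on FPKM and in 32 without ND+veh replicate 4 and HFD+veh replicate 6, and 14 pairs had an adjusted p under 0.05 (permutation within groups, 100000 resamples, n = 24 libraries, two-sided, adjusted over 36 pairs). All 14 had an r of at least 0.563, which 8.71% of all pairs of genes tested reached, and the median r was 0.47 over the 36 pairs beside 0 over all pairs, of which 49.8% were above 0. The closest pairs were Fbp1 with Pcx (r = 0.75, Spearman's rho = 0.739, adjusted permutation p = 0.0122 and 0.00735), Fbp1 with Pklr (r = 0.746, rho = 0.664, adjusted permutation p = 0.00252 and 0.00735) and G6pc with Fbp1 (r = 0.728, rho = 0.706, adjusted permutation p = 0.00252 and 0.00735). These join enzymes of glucose production to each other and to the pyruvate kinase of glycolysis. Pck1 went with Foxo1 (r = 0.705, rho = 0.713, adjusted permutation p = 0.00564 and 0.00735), and Foxo1 with Ppargc1a (r = 0.615, rho = 0.651, adjusted permutation p = 0.0122 and 0.00735). Pck1 and Ppargc1a had r = 0.571 and rho = 0.616 (adjusted permutation p = 0.0422 and 0.0159). That pair was not called without ND+veh replicate 4 and HFD+veh replicate 6 (adjusted permutation p = 0.08005) or on FPKM (r = 0.322, adjusted permutation p = 0.336), and Foxo1 with Ppargc1a had r = 0.236 on FPKM (adjusted permutation p = 0.422).

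Leaving out the 2 libraries farthest from the median of the first gene gave r = 0.695 for Fbp1 with Pcx, 0.564 for Fbp1 with Pklr, 0.596 for G6pc with Fbp1, 0.703 for Pck1 with Foxo1, 0.573 for Ppargc1a with Foxo1 and 0.534 for Pck1 with Ppargc1a. By contrast r fell from 0.651 to 0.246 for G6pc with Slc2a2 and from 0.634 to 0.303 for G6pc with Ppargc1a, so Pearson's r in these pairs leaned on those libraries. Over all 24 libraries Spearman's rho was 0.367 for G6pc with Slc2a2 (adjusted permutation p = 0.16) and 0.518 for G6pc with Ppargc1a (adjusted permutation p = 0.0401). Without ND+veh replicate 4 and HFD+veh replicate 6, 7 pairs were called. The FPKM table gave 5. Depth and marker levels are shared by all genes of a library. The summed level of 7 periportal markers had r = 0.834 with Fbp1, 0.751 with G6pc, 0.697 with Pklr and 0.545 with Pck1 within groups, and the macrophage list had r = -0.605 with Pklr, -0.455 with Pcx and -0.0369 with Pck1. The part of these levels in the correlations was not tested.

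**Figure D3:**
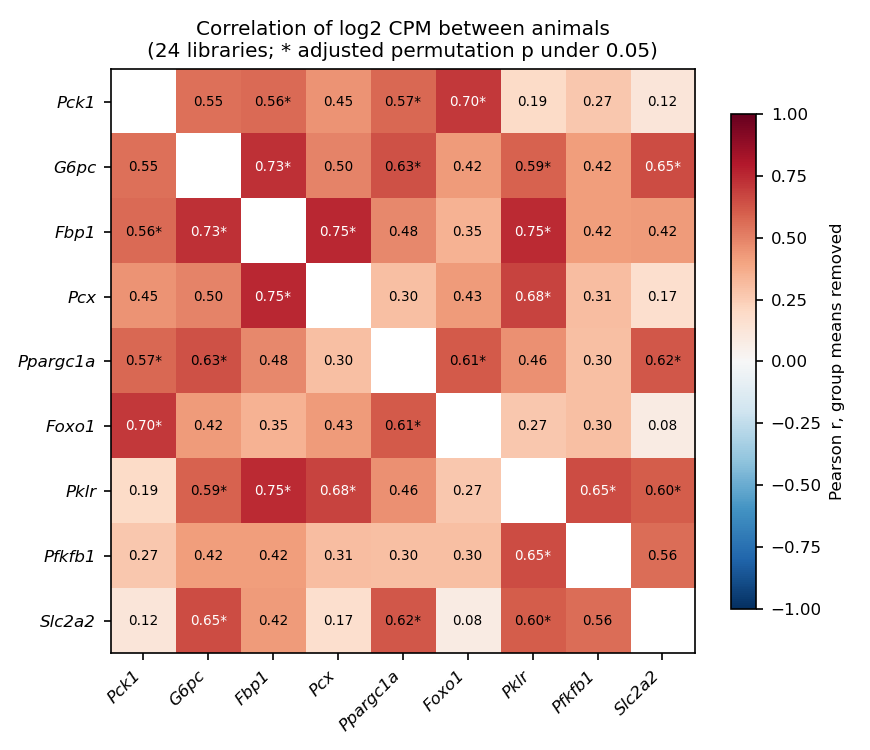
Pearson's r between log2 CPM values of each pair of genes over 24 libraries after removal of group means, on a colour scale from -1 to 1, with a star where the adjusted permutation p is under 0.05. All 36 values are positive, and 14 pairs carry a star.

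The genes most like each of the 9 over the 24 libraries, among 7807 genes with a symbol and a mean log2 CPM of at least 3, are given as a description. Pcx was closest to Got2 (r = 0.968), and Fbp1 to Suox (r = 0.8975) and Pmpcb (r = 0.885). Pklr was closest to Hcn3 (r = 0.9665) and Dgat2 (r = 0.901). Hcn3 lies on the opposite strand and overlaps Pklr, reached 45.6 CPM, and cannot be told apart from it at shared bases where counting ignores strand, which is not stated. Slc2a2 was followed by Slc38a4 (r = 0.836) and Ndufaf4 (r = 0.807), Pfkfb1 by Tedc2 (r = 0.8595) and Myg1 (r = 0.805), and Ppargc1a by Camk1d (r = 0.7975) and Serpina6 (r = 0.7775). The looser matches were Aldh8a1 (r = 0.789) and Dpyd (r = 0.781) for G6pc, Herpud1 (r = 0.759) and Tob2 (r = 0.740) for Foxo1, and Slc25a51 (r = 0.738) and Got1 (r = 0.721) for Pck1. Group means were kept in these values. With them removed, r was 0.952 for Pcx with Got2, 0.963 for Pklr with Hcn3 and 0.681 for Ppargc1a with Camk1d. Pfkfb1 overlaps Apex2, at up to 10.1 CPM, and Pcx overlaps Lrfn4, at up to 3.44 CPM, likewise on opposite strands.

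Over all genes tested, 16.0% were called higher and 9.86% lower with the diet, and 10.9% and 21.1% with eRapa on it. In the joint comparison the shares were 6.93% and 6.54%, and the list counts below stand beside all these shares. Around these 9 genes, the other 21 tested enzymes and carriers of gluconeogenesis included 5 called higher and 0 called lower with the diet, with a median log2 fold change of 0.12 beside 0.047 over all genes. By edgeR 3 were lower at an unadjusted p under 0.05, and DESeq2 called 1 lower and voom 0. The genes called higher included Sds, Got1, Gpt2 and Mdh1. Sds, the serine dehydratase that feeds pyruvate and is also on the periportal list, rose 5.43-fold from a mean of 77.6 to 421.5 CPM (log2 2.44 ± 0.461; edgeR, adjusted p = 0.00103). Got1, the cytosolic aspartate aminotransferase, rose 2.01-fold (log2 1.01 ± 0.326; edgeR, adjusted p = 0.0275), which was lost without HFD+veh replicate 1 (0.707, adjusted p = 0.0788) and without ND+veh replicate 4 and HFD+veh replicate 6 together (0.949, adjusted p = 0.0573). Slc37a4, the glucose-6-phosphate carrier that works with G6pc, stood at 186 CPM in both groups (log2 difference -0.00614, interval -0.48 to 0.47). With eRapa on the high-fat diet, 5 of the 21 were called higher and 2 lower, with a median of 0.23 beside -0.0375. Gpd1 and Gpd2, the cytosolic and mitochondrial glycerol-3-phosphate dehydrogenases, rose by 1.37 ± 0.193 and 0.93 ± 0.147 on the log2 scale (edgeR, adjusted p = 4.63e-05 and 0.00015), and Sds fell by 1.55 (edgeR, adjusted p = 0.00907). The Sds call was lost with voom (-1.38, adjusted p = 0.0799) and with replicate number as a block in edgeR (-1.2, adjusted p = 0.0542). Pck2, the mitochondrial isozyme of Pck1, was the other gene to fall (log2 -0.77 ± 0.218; edgeR, adjusted p = 0.0094), at means of 7.97, 5.77 and 3.37 CPM in ND+veh, HFD+veh and HFD+eRapa. Against ND+veh, 6 were called higher and 1, Pck2, lower, with a median of 0.35 beside -0.0336, led by Gpd1 (1.02 ± 0.183; edgeR, adjusted p = 0.000456) and the dicarboxylate carrier Slc25a10 (0.97 ± 0.201; edgeR, adjusted p = 0.00189). Of these, Gpt2, Mdh1 and Pck2 were picked after their values were seen.

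In glycolysis, 5 of 17 other enzymes were called higher and 1 lower with the diet (median 0.08), beside 16.0% and 9.86% of all genes. With eRapa on that diet 6 were called lower and 0 higher (median -0.07), beside 21.1% and 10.9% of all genes. None was higher there by edgeR at an unadjusted p under 0.05, nor called higher by DESeq2 or voom. Pkm, the pyruvate kinase of muscle and many other tissues, rose 5-fold from 16.9 to 84.7 CPM (log2 2.32 ± 0.63; edgeR, adjusted p = 0.0121) and was 0.154-fold as high in HFD+eRapa as in HFD+veh (log2 -2.70 ± 0.613; edgeR, adjusted p = 0.00276). Hk1, Hk2, Hk3 and Pfkp, low hexokinases and the platelet phosphofructokinase, made up the rest of the 5, at means of 1.39 to 3.575 CPM in ND+veh and 8.24 to 22.4 in HFD+veh, and they too were called lower with eRapa, as was Aldoa (log2 -0.50 ± 0.106; edgeR, adjusted p = 0.00169). The 4 were picked after their values were seen. These genes moved in the same direction as the macrophage markers, whose medians of 208, 1755 and 141 CPM are given above, and with the immune marker level as a covariate Pkm was 0.518 with the diet (adjusted p = 0.113) and -0.428 with eRapa (adjusted p = 0.286). With that covariate 9.79% of all genes were called with the diet and 6.28% with eRapa on it, beside 25.9% and 32.0% without it. The Pkm call with the diet was also lost with voom (1.87, adjusted p = 0.0606). It was lost with immediate early and stress genes as a covariate (edgeR, 1.63, adjusted p = 0.135), where 7.17% of all genes were called. Limma on log2(FPKM + 0.1) and on unfiltered FPKM lost it too (1.81 and 1.7, adjusted p = 0.0587 and 0.0952). Gckr, a regulatory protein of hepatocytes on the list of control proteins, differed by 0.0432 with the diet (interval -0.37 to 0.46). The muscle phosphofructokinase Pfkm fell by 0.50 with the diet (edgeR, adjusted p = 0.0298; call lost on leaving out any of 6 libraries) and, as the 1 called gene of the list, was at -0.57 in the joint comparison (edgeR, adjusted p = 0.014).

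Proteins that control glycolysis and the use of pyruvate were called in both directions, 3 higher and 3 lower of 17 with the diet (median -0.10) and 3 and 3 with eRapa on it (median 0.10). The shares over all genes were 16.0% higher and 9.86% lower with the diet, and 10.9% and 21.1% with eRapa on it. Pdk4, the kinase that shuts pyruvate dehydrogenase, fell to 0.252-fold, from a mean of 31.4 to 7.88 CPM (log2 -1.99 ± 0.436; edgeR, adjusted p = 0.00338), and stayed low in HFD+eRapa at 10.5 CPM (log2 -1.58 ± 0.394 against ND+veh; edgeR, adjusted p = 0.00841). Dlat, the acetyltransferase subunit of pyruvate dehydrogenase, fell by 1.12 with the diet (edgeR, adjusted p = 0.000164), rose by 0.46 with eRapa on it (edgeR, adjusted p = 0.038; call lost on leaving out any of 8 libraries) and was lower than in ND+veh, at -0.66 (edgeR, adjusted p = 0.00602). Dld, a subunit shared by related complexes, rose by 0.36 with the diet (edgeR, adjusted p = 0.00822), or by 0.28 without HFD+veh replicate 6 (adjusted p = 0.0532) and by 0.262 without ND+veh replicate 4 as well (adjusted p = 0.073). The phosphatase Pdp2 rose by 0.60 with eRapa on the diet (edgeR, adjusted p = 0.0095). In the joint comparison 3 rose and 2 fell (median 0.00), beside 6.93% and 6.54% of all genes. Among those that rose were Pdpr at 0.49 and Pdha1, a subunit of pyruvate dehydrogenase, at 0.33 (edgeR, adjusted p = 0.0347 and 0.00476). The Pdpr call was lost on leaving out any of 12 libraries.

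Of 15 glycogen genes, 4 were called higher and 1 lower with the diet (median 0.14), 1 higher and 3 lower with eRapa on it (median 0.05), and 3 higher and 2 lower in HFD+eRapa against ND+veh (median -0.01). Of all genes tested, 16.0% and 9.86%, 10.9% and 21.1%, and 6.93% and 6.54% were called higher and lower in the same order of comparisons. Gys2, the liver glycogen synthase, had a log2 difference of 0.16 with the diet (interval -0.18 to 0.49) and rose by 0.57 ± 0.161 in HFD+eRapa against ND+veh (edgeR, adjusted p = 0.0189; 0.487 and 0.056 without ND+veh replicate 4), while the liver phosphorylase Pygl differed by -0.18 with the diet (interval -0.51 to 0.15). Gbe1, the branching enzyme, rose by 0.28 with the diet (edgeR, adjusted p = 0.0269; call lost on leaving out any of 5 libraries). With eRapa on the diet, Ugp2, which makes UDP-glucose, was at -0.27 on the log2 scale (edgeR, adjusted p = 0.0415), a call that was lost on leaving out any of 13 libraries. Pgm1 rose by 0.38 and Ppp1r3c, a targeting subunit of a phosphatase, fell by 0.93 in HFD+eRapa against ND+veh (edgeR, adjusted p = 0.00875 and 0.0047). Among 8 sugar and lactate carriers, 1 was called higher and 1 lower with the diet (median 0.06), beside 16.0% and 9.86% of all genes. With eRapa on it 0 carriers were called higher and 3 lower (median -0.41), beside 10.9% and 21.1% of all genes. Against ND+veh 0 carriers were called higher and 2 lower (median -0.17), beside 6.93% and 6.54% of all genes. Higher by edgeR at an unadjusted p under 0.05 were 0 with eRapa on the diet and 1 against ND+veh, and DESeq2 called 0 and 0 of them higher and voom 0 and 1. Slc2a8 fell by 0.73 with the diet and had a log2 fold change of -0.49 in the joint comparison (edgeR, adjusted p = 0.00612 and 0.048), and Slc2a1 had one of -0.50 with eRapa on the diet (edgeR, adjusted p = 0.048). The call between HFD+eRapa and ND+veh for Slc2a8 and that for Slc2a1 were lost on leaving out any of 18 and 15 libraries.

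The list of 46 tested regulators and hormone signalling genes held 2 genes called higher and 12 called lower with the diet, with a median log2 fold change of -0.38 beside 0.047 over all genes. Of all genes tested, 16.0% were called higher and 9.86% lower. With eRapa on the diet, 12 of the 46 were called higher and 2 lower, with a median of 0.25 beside -0.0375. There 10.9% and 21.1% of all genes were called higher and lower. Both comparisons use the same HFD+veh animals, so a deviation of that group moves their values in opposite directions. Irs2, the insulin receptor substrate, fell to 0.236-fold with the diet, from 20.1 to 57.4 CPM in ND+veh to 4.77 to 15.7 CPM in HFD+veh, with no overlap of the groups (log2 -2.08 ± 0.323; edgeR, adjusted p = 0.000179). It rose 2.27-fold with eRapa on the diet (log2 1.18 ± 0.308; edgeR, adjusted p = 0.00617) and was at -0.90 in the joint comparison (edgeR, adjusted p = 0.037; call lost on leaving out any of 11 libraries). Igfbp1, an insulin-repressed binding protein of growth factors, fell to 0.140-fold with the diet, from a mean of 197 to 27.5 CPM (log2 -2.84 ± 0.582; edgeR, adjusted p = 0.00216), and was at -1.68 in the joint comparison (edgeR, adjusted p = 0.0289; call lost on leaving out any of 4 libraries). Mlxipl, which encodes the glucose-sensing factor ChREBP, fell to 0.420-fold with the diet, from 213 to 89.5 CPM (log2 -1.25 ± 0.402; edgeR, adjusted p = 0.0267; 0.0516 without HFD+veh replicate 5). The Mlxipl difference was -0.645 with the summed level of 15 immediate early and stress genes as a covariate (adjusted p = 0.354), -0.706 with the immune marker level (adjusted p = 0.136) and -1.07 without ND+veh replicate 4 and HFD+veh replicate 6 (adjusted p = 0.0578), and so not called. Over all genes, the share called with the diet was 7.17% with the stress covariate and 9.79% with the immune one, beside 25.9% without. With eRapa on the diet it was 6.28% with the immune covariate, beside 32.0% without. Prkaa1, a catalytic subunit of the energy sensor AMPK, rose by 0.84 with the diet and fell by 0.93 with eRapa on it (edgeR, adjusted p = 0.00892 and 0.00269). Without HFD+veh replicate 6, the highest of its group for this gene, the Prkaa1 values were 0.458 and -0.553, still called (adjusted p = 0.0405 and 0.0101), and with the immune marker level as a covariate they were 0.457 and -0.405 and not called (adjusted p = 0.108 and 0.235). Of factors with roles in liver identity, Foxa1 rose by 1.28 (edgeR, adjusted p = 0.000995) and Onecut1 by 2.38 with eRapa on the diet (edgeR, adjusted p = 0.00416; 1.73 and 0.107 with the immune marker covariate). Voom gave 2.33 for Onecut1, not called (adjusted p = 0.0583). Foxa1 and Onecut1 were both called lower with the diet, and neither was called in the joint comparison. Creb1, which binds the cyclic AMP response element, fell by 0.61 with eRapa on the diet (edgeR, adjusted p = 0.0239), a log2 fold change that was -0.23 and not called without HFD+veh replicate 6 (adjusted p = 0.181). Of the 13 alternatives that do not leave out each library in turn, 8 lost the Creb1 call. They include voom (-0.49, adjusted p = 0.0599) and edgeR without ND+veh replicate 4 and HFD+veh replicate 6 (-0.214, adjusted p = 0.179). In the joint comparison edgeR called 0 of the 46 higher and 4 lower (median -0.04), beside 6.93% and 6.54% of all genes. Of the 46, 1 was higher by edgeR at an unadjusted p under 0.05, and DESeq2 and voom called 0 higher. Ppargc1a and Foxo1 themselves are not counted in this list. Without ND+veh replicate 4 and HFD+veh replicate 6, 2 of the 46 were called higher and 8 lower with the diet, and 7 higher and 2 lower with eRapa on it, a recount chosen after the data had been seen. In the same setting the diet calls were 3 higher and 2 lower in gluconeogenesis, 3 and 2 in glycolysis, 0 and 3 among control proteins, 3 and 1 in glycogen genes and 0 and 1 among carriers. With eRapa on the diet they were 5 higher and 2 lower, 0 and 5, 4 and 1, 0 and 1, and 0 and 1 in the same order of lists. In this setting 16.7% of all genes tested were called with the diet and 24.3% with eRapa on it.

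**Figure D4:**
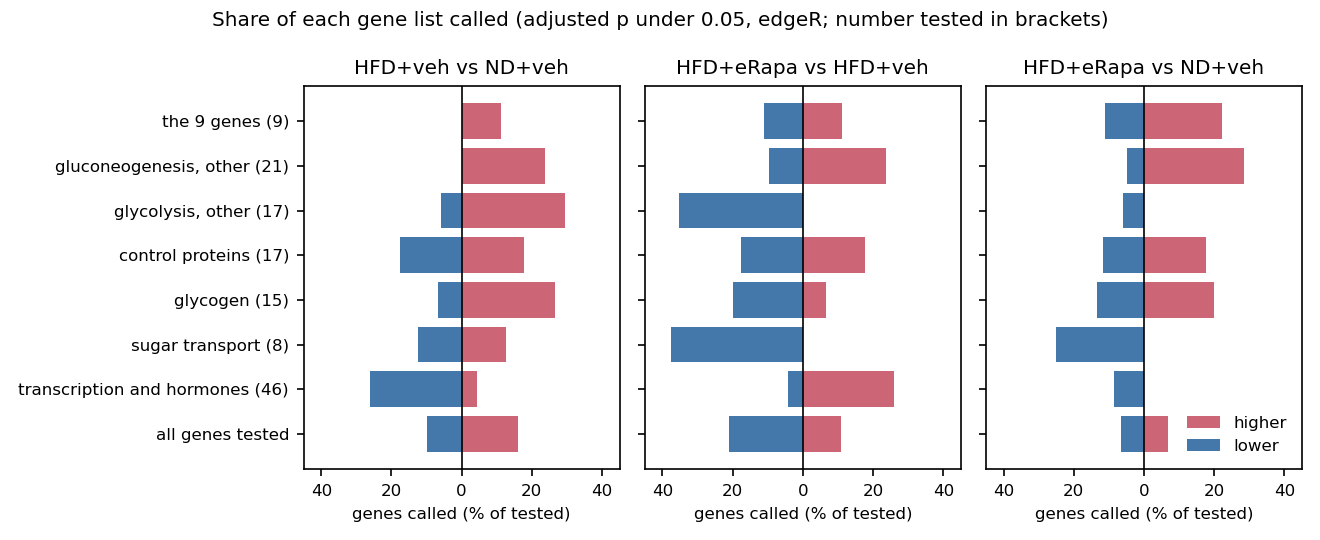
Share of the tested genes of each list called higher (to the right) or lower (to the left) in each comparison, in percent of the genes tested, with the number tested in brackets and all 13847 genes in the bottom row. The regulator list goes from 12 genes lower and 2 higher with the diet to 12 higher and 2 lower with eRapa on it, while all genes tested go from 9.86% lower and 16.0% higher to 21.1% lower and 10.9% higher. These 2 comparisons share the HFD+veh animals with opposite sign and are not independent.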

How the data were processed

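RNA from hepatocytes of 24 mice was sequenced. The counts, deposited by the authors, are reads per gene of mm10 with Gencode M23, from STAR, SAMtools 1.1.0 and HTSeq 0.11.2 in the submitters' processing notes, and the strand setting of counting is not stated. The FPKM values, deposited by the authors beside them, are from Cufflinks. Coordinates are from Gencode M21 (GRCm38), which held 55154 of the 55421 gene identifiers. Groups were taken from the labels, 0 sample columns were unmapped, and 85 pairs of libraries within groups differed by a chi-square of at least 11.3 per degree of freedom, so none is a repeat. The labels give separate animals.

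Counts were tested with edgeR 4.0.16 in R 4.3.3 (filterByExpr, TMM, robust glmQLFit on all groups, Benjamini-Hochberg adjusted p under 0.05), and log2 CPM used a prior count of 2. DESeq2 1.42.0 and limma 3.58.1 served as alternatives, and limma on FPKM used pseudocounts of 1 and 0.1. Scripts were tested on simulated data. The 9 genes and all lists were chosen with earlier results of these data known. List genes were named where they were the 2 largest called changes of a list in either direction at a mean log2 CPM of at least 3, beside Slc37a4, Pkm, Gckr, Pdk4, Mlxipl, Gys2, Pygl, Irs2 and Igfbp1. Some genes that the rule or the lists would name are counted in their lists and not reported here.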

Additional observations from a re-analysis of the deposited data

Results flagged for a closer look

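Of 120 sets of animals examined, 1 gene in 1 group each, 16 held an animal whose log2 CPM lay far from the rest by Dixon's test, where chance alone would give about 6 (about 1 in 20). Among the 9 genes, Pcx was at 8.55 in ND+veh replicate 8 with the others at 9.02 to 9.43, Foxo1 at 5.64 in HFD+eRapa replicate 4 with the others at 4.82 to 5.21, and Slc2a2 at 7.49 in ND+veh replicate 4 with the others at 8.37 to 9.03.

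In the list genes, HFD+veh replicate 6 was lowest for Gpd1 (6.87, others 7.86 to 8.38), Slc25a10 (6.07, others 7.30 to 7.99) and Slc2a8 (1.61, others 2.87 to 3.58), and highest for Prkaa1 (5.59, others 3.68 to 4.44) and Creb1 (5.97, others 4.12 to 4.63). HFD+eRapa replicate 2 was lowest for Gpd1 (8.70, others 9.28 to 9.61), Slc25a10 (7.44, others 8.14 to 8.74) and Dlat (5.31, others 5.71 to 6.10), and highest for Dld (7.66, others 7.15 to 7.38). ND+veh replicate 4 was lowest for Gys2 (6.29, others 6.76 to 7.03) and Dlat (5.46, others 6.28 to 6.86). Pdk4 in HFD+veh replicate 1 (0.90, others 2.64 to 3.85) and Aldoa in HFD+veh replicate 2 (6.46, others 6.83 to 7.11) were single low values.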

How the results depend on the processing

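Between HFD+veh and ND+veh, 1 of the 9 genes was called, against 2 with DESeq2, 3 without ND+veh replicate 4 and HFD+veh replicate 6, and 1 to 3 on leaving out each library in turn. Between HFD+eRapa and HFD+veh, 2 were called, against 3 when the 2 groups were fitted alone, 1 with the immune marker covariate and 1 in each of the 3 fits on FPKM. Between HFD+eRapa and ND+veh, 3 were called, against 4 with the immune marker covariate and 4 without ND+veh replicate 4 and HFD+veh replicate 6. There were 2 without the filter on counts and on filtered FPKM, 1 on unfiltered FPKM and 1 to 3 on leaving out each library. The 14 called correlations became 5 on FPKM, 7 with group means kept and 7 without the 2 libraries. With the replicate block the 9 genes gave 1, 2 and 3 calls and 16 correlations, but the numbers share no stated origin and the deviations of same-numbered animals had an r over 0.1 in 5 of 7, 2 of 7 and 2 of 8 pairs (ranges -0.36 to 0.726, -0.659 to 0.495 and -0.518 to 0.367), so not in every pair. All genes called ranged from 993 to 4101, 870 to 5000 and 1118 to 2559 in the 3 comparisons over the 13 alternatives that do not leave out each library in turn, lowest with the stress covariate, the immune covariate and unfiltered FPKM, and from 2106 to 4479, 3269 to 5061 and 1462 to 2232 on leaving out each library.

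Signs changed only for differences that were not called. For HFD+veh against ND+veh, G6pc ran from -0.0346 to 0.276 on leaving out each library, Ppargc1a from -0.105 to 0.235 likewise and was -0.271, -0.428 and -0.271 on FPKM, Gckr from -0.105 to 0.136 likewise and was -0.00461 with the replicate block, and Pygl was 0.00987 with the immune covariate. Slc37a4 became 0.0155 at 10 counts or more in every library, 0.0132 with voom, 0.0248 with the block, 0.326 and 0.0884 with the immune and stress covariates, 0.00674 or 0.00722 on FPKM, and -0.18 to 0.0947 on leaving out each library. For HFD+eRapa against HFD+veh, G6pc became 0.119 with the block and -0.196 to 0.0472 on leaving out each, Pklr -0.453 with the immune covariate, -0.0461 without the 2 libraries and -0.0623 to 0.195 on leaving out each, and Slc2a2 -0.00237 with DESeq2 or its size factors, -0.0279 at 10 counts or more, -0.16 with the immune covariate, -0.111 on FPKM and -0.0423 to 0.0788 on leaving out each. For HFD+eRapa against ND+veh, G6pc became -0.0741 without the 2 libraries and -0.096 to 0.202 on leaving out each, Foxo1 -0.0163 or -0.0158 on FPKM and -0.00516 to 0.169 on leaving out each, and Pfkfb1 0.0161 with voom, 0.0504 with the block, 0.0669 with the stress covariate and -0.196 to 0.0141 on leaving out each. The cause was not tested. Over the same 13 alternatives, single genes of the 9 kept sign and call in 316 cases, lost a call in 9 and gained one in 6. On leaving out each library, 634 of 648 values kept their call, 8 lost it and 6 gained it. By standard error Pck1 was the least precise of the 9, at 0.333 to 0.353.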
